A study of Mus musculus with 11 samples.

Results

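Transcripts of 10 genes were followed in infarcted and sham-operated mouse hearts: Adam17, Adam9, Adam15, Adam8, Adam12, Adam19, Adam22 and Adam23, which are membrane-anchored members of the ADAM family (a disintegrin and metalloprotease), and Rhbdf1 and Rhbdf2, which encode the iRhom partners of ADAM17. The genes were picked by name from the 55421 Ensembl genes of the count table, and all 10 were found. The name sheddase holds for only a part of them. ADAM22 and ADAM23 lack the catalytic residues of a metalloprotease, and the iRhoms are inactive relatives of the rhomboid proteases and not ADAM proteins.

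Hearts of 11 female C57BL/6J mice were taken for RNA sequencing 3 days after surgery, at an age of 8 weeks. The left anterior descending coronary artery was ligated in 8 of them to cause a myocardial infarction (MI), of which 4 received GI254023X at 100 mg/kg from implanted osmotic pumps, an inhibitor of ADAM10 (A10i mice A116, A117, A119 and A120), and 4 received its solvent DMSO (DMSO mice A105, A127, A128 and A129). The other 3 were sham-operated and also received DMSO (sham mice S1, S2 and S3). Infarcted hearts gave tissue of the infarct and border zone and sham hearts gave healthy tissue, so the infarction and the piece of the heart taken cannot be told apart in the comparisons with sham. No genetic deletion was used, the inhibitor acts on the protein, and the counts measure transcripts and not the amount, maturation or activity of a protease.

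ADAM sheddases sit in the membrane and cut other membrane proteins close to the cell surface, which releases growth factors, cytokines, receptors and adhesion molecules as soluble ectodomains. They are made with an inhibitory prodomain that furin-type convertases remove in the Golgi, and ADAM17 leaves the endoplasmic reticulum only in complex with an iRhom. In bulk heart tissue their transcripts come from cardiomyocytes, fibroblasts and endothelial cells and, after an infarction, from leukocytes that enter the tissue.

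Total counts per mouse ranged from 21702623 to 29511768. Each of the 10 genes had at least 15 counts in every library and passed the filter on low counts in all 3 comparisons. Marker genes matched the labelled tissue, with summed cardiomyocyte markers at 104900 to 107400 CPM (counts relative to library size) in sham, 48050 to 72010 in DMSO and 60650 to 83010 in A10i mice. In bulk tissue, fewer cells of a type and less RNA per cell cannot be told apart. Within their groups, DMSO mouse A129 and A10i mouse A116 had the lowest cardiomyocyte sum and the highest monocyte, macrophage and fibroblast sums, and results that turn on these mice are given with and without them.

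The regions before the start sites are shown for the gene with the largest rise after MI, Adam8, for Adam19, which rose after MI and was lower in all A10i than in all DMSO mice, and for Adam17, whose level hardly moved. Each line gives the 250 bases before the RefSeq start (GRCm38.p6, 5′ to 3′ on the strand of the gene), with CG pairs in capitals. They are chr7:139992563-139992812 on the minus strand for Adam8, chr11:46055734-46055983 on the plus strand for Adam19 (of its 3 RefSeq windows, the one that ends next to the annotated gene start) and chr12:21373633-21373882 on the minus strand for Adam17.
Adam8: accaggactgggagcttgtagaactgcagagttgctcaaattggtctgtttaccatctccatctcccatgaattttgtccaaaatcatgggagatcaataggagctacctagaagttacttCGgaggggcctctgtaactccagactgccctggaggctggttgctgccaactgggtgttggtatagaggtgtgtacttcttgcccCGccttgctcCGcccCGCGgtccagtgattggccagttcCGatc
Adam19: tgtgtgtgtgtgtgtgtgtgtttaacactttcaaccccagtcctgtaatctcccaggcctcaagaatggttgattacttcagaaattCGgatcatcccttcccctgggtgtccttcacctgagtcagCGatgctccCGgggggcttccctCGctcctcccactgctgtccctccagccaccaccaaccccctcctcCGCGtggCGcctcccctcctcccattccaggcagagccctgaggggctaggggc
Adam17: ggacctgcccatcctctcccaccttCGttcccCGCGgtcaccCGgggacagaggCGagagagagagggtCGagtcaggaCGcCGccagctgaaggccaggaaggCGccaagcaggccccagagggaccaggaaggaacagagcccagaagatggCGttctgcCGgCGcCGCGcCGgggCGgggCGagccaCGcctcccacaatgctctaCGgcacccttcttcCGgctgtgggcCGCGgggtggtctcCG

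The capitals are fewer for Adam8 and Adam19 than for Adam17. Over the full windows of 300 bases, which add 50 bases after the start, Adam8 had 6 CG pairs, Adam19 11 and Adam17 30, beside a median of 7 and quartiles of 3 and 20 over all 32851 RefSeq promoter windows. Among the other members with a window, Adam15 had 25 CG pairs, Adam22 19 and Adam23 31. The AP-1 motif TGANTCA, searched on both strands, was found in the Adam19 window at position -131 from the start and in no window of Adam8, Adam15, Adam17, Adam22 or Adam23, and 7.81% of all windows hold it. The SP1 core GGGCGG was found in the windows of Adam8, Adam15, Adam17 and Adam19 and in 35.7% of all windows, whereas the PU.1 core GAGGAA (28.3% of all windows) was found only in the first of the 3 Adam19 windows and TATAAA (13.6%) in none. These matches describe letters and no binding was measured.

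**Figure D1:**
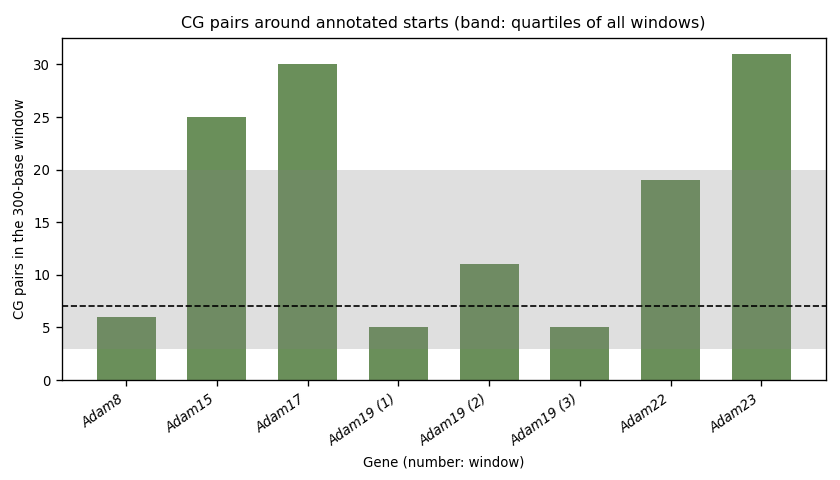
Number of CG pairs in the RefSeq promoter windows of 300 bases (vertical axis) for the 6 genes with a window (horizontal axis, 3 windows for Adam19); the grey band spans the quartiles and the dashed line marks the median of all 32851 windows. Adam8 with 6 pairs lies below the median of 7, and Adam17 with 30 and Adam23 with 31 lie above the upper quartile of 20.

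The comparison of DMSO with sham mice asked which of the genes change in the infarcted heart. With edgeR's quasi-likelihood test and Benjamini-Hochberg adjustment over the 17117 genes tested, 8 of the 10 genes passed a threshold of 0.01, 7 higher and 1 lower in DMSO mice. Over all genes tested, 22.5% were called, 12.9% higher and 9.6% lower. The 7 that rose were Adam8, Adam12, Adam19, Adam9, Adam15, Rhbdf2 and Rhbdf1, the gene that fell was Adam22, and Adam17 and Adam23 were not called. The median log2 fold change of the 10 genes was 0.48 and that of all genes 0.00.

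In A10i mice, 7 of the 10 genes differed from sham, where 22.9% of the 16971 genes tested were called. Of these, 6 were higher (13.7% of all genes) and 1 was lower (9.11% of all genes). The genes that rose were Adam8, Adam12, Adam19, Adam9, Adam15 and Rhbdf1, the gene that fell was Adam22, and Rhbdf2, Adam17 and Adam23 were not called. The median log2 fold change of the 10 genes was 0.41. Both comparisons use the same 3 sham mice, so they are not independent of each other.

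Between A10i and DMSO mice, which asks whether the inhibitor changed these transcripts in the infarcted heart, 0 of the 10 genes and 0% of the 16792 genes tested passed an adjusted p-value of 0.01 in edgeR. DESeq2 and limma-voom also called 0 of the 10, where over all genes DESeq2 called 231 and limma-voom 0, so the count over all genes depends on the test. At an unadjusted p-value under 0.05, 2 of the 10 genes were lower with A10i, Adam19 and Rhbdf2, where 13.8% of all genes passed in either direction and 6.73% were lower. The counts of the 4 A10i mice lay below those of the 4 DMSO mice without overlap for the same 2 genes, and 8.12% of all genes had no overlap in either direction. With 10 genes, counts of 2 cannot be set apart from these shares.

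**Figure D2:**
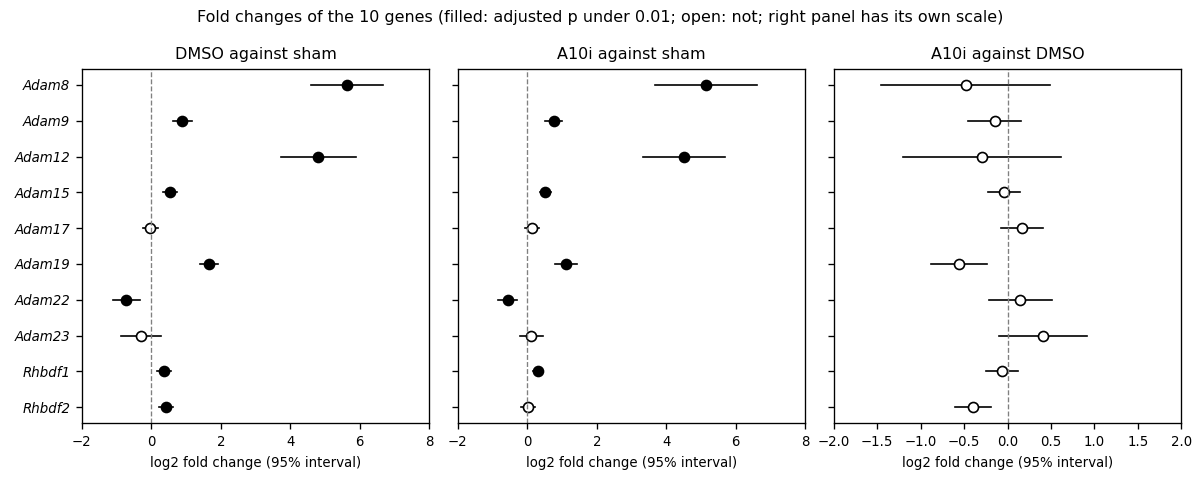
Log2 fold change (horizontal axis) with its 95% interval for each of the 10 genes (vertical axis) in the 3 comparisons, from edgeR; filled points passed an adjusted p-value of 0.01, and the right panel has a narrower scale. Adam8 and Adam12 lie far to the right in both comparisons with sham, and every point is open in A10i against DMSO, where the intervals of Adam19 and Rhbdf2 do not reach 0.

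Adam8, a protease of myeloid cells that cuts adhesion molecules, had the largest rise. Its normalized count was 16.6 in S1, 20.1 in S2 and 25.8 in S3, at 15 to 25 raw counts. It was 734 in A105, 942 in A127, 691 in A128 and 1784 in A129, and 1437 in A116, 642 in A117, 353 in A119 and 537 in A120. Every infarcted heart thus lay more than an order of magnitude above every sham heart, while the infarcted hearts differed widely among themselves. The rise was 49.3-fold in DMSO mice (95% interval 24.1 to 101, adjusted p = 0.000111) and 35.5-fold in A10i mice (12.8 to 97.9, adjusted p = 0.000883). Between A10i and DMSO the groups overlapped and the log2 fold change was -0.48 ± 0.43 (SE, adjusted p = 0.676), which moved to -0.09 without A129 and to -1.02 without A116. Adam8 shares exon sequence with Gm16201 on the opposite strand, which had 13 to 42 counts per library. That is as many as Adam8 had in sham hearts, and the strand setting of the counting is not given in the sources used here.

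Adam12 (meltrin alpha), which cuts heparin-binding EGF-like growth factor and is known from muscle and mesenchymal tissue, rose with a similar pattern. It had 21.0, 15.3 and 29.9 normalized counts in S1, S2 and S3, 400 in A105, 448 in A127, 521 in A128 and 1099 in A129, and 921 in A116, 414 in A117, 303 in A119 and 371 in A120. The same 2 mice, A129 and A116, were highest in both genes. Adam12 was 27.9-fold higher in DMSO (95% interval 13.2 to 58.8, adjusted p = 0.000233) and 22.8-fold higher in A10i mice (10.1 to 51.8, adjusted p = 0.00056) than in sham. The log2 fold change between A10i and DMSO was -0.30 ± 0.40 (SE, adjusted p = 0.797) and turned to 0.14 without A129 and to -0.76 without A116. Adam12 and Adam8 lie 5.75 Mb apart on chromosome 7 (GRCm38, Adam12 at chr7:133883199-134232146 and Adam8 at chr7:139978932-139992562, both on the minus strand).

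Marker sums of several cell types were also higher in infarcted than in sham hearts, but they differed in direction between the infarcted groups. Mean neutrophil sums were 102 CPM in DMSO and 29.9 in A10i mice, macrophage sums 539 and 725, and fibroblast sums 4130 and 6416. Of 13 neutrophil markers 7 could be tested, and all 7 were higher in DMSO and in A10i mice than in sham. The shares of all genes called higher were 12.9% in DMSO and 13.7% in A10i mice. Their summed level over all 13 was 1.16 to 2.25 CPM in sham, 70.1 to 129.4 in DMSO and 14.1 to 48.9 in A10i mice, Elane was at 0 in every library and Ly6g at 0 in every sham library. S100a8 and S100a9, the calprotectin subunits of neutrophils, averaged 694 ± 162 and 786 ± 175 normalized counts in DMSO mice (SD, n = 4) and 173 ± 83.5 and 202 ± 90.9 in A10i mice (SD, n = 4). Neutrophil sums did not overlap between DMSO and A10i mice, and the counts of Adam8 and Adam12 did. The part of neutrophils in the levels of these 2 genes was not tested.

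Of 7 monocyte markers 6 rose in DMSO mice and 5 in A10i mice, with sums of 24.9 to 32.3, 133 to 288 and 99.9 to 197 CPM in sham, DMSO and A10i mice. Vcan weighed most in these sums, with means of 560, 2303 and 1972 normalized counts in the same order. Of 13 macrophage markers 9 rose in DMSO and 11 in A10i mice, with sums of 304 to 331, 419 to 692 and 559 to 949 CPM. Of 12 fibroblast markers 5 rose in DMSO and 10 in A10i mice, with sums of 1240 to 1338, 1999 to 6548 and 4992 to 9140 CPM. These counts of markers stand beside 12.9% of all genes called higher in DMSO and 13.7% in A10i mice. The 2 most abundant markers of each list were Chil3 and Vcan, C1qb and C1qa, and Col3a1 and Col1a1. Of these, Chil3 had at most 1.11 normalized counts in sham, 559 to 2514 in DMSO and 109 to 501 in A10i mice. Chil3 does not stand for its list between the infarcted groups. In A10i against DMSO 0 of the 7 monocyte markers were called by edgeR. At an unadjusted p under 0.05, 3 were lower and 0 higher, where 6.73% of all genes were lower. Ccr2 averaged 533 normalized counts in DMSO and 680 in A10i mice, and Plac8 174 and 176. No monocyte, macrophage or fibroblast marker was at 0 in all libraries of a group. A129 had the highest neutrophil, monocyte, macrophage and fibroblast sum of the DMSO mice, and A116 had the highest of each of the 4 sums among the A10i mice. The part of these cell types in the levels of Adam8 and Adam12 was not tested.

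**Figure D3:**
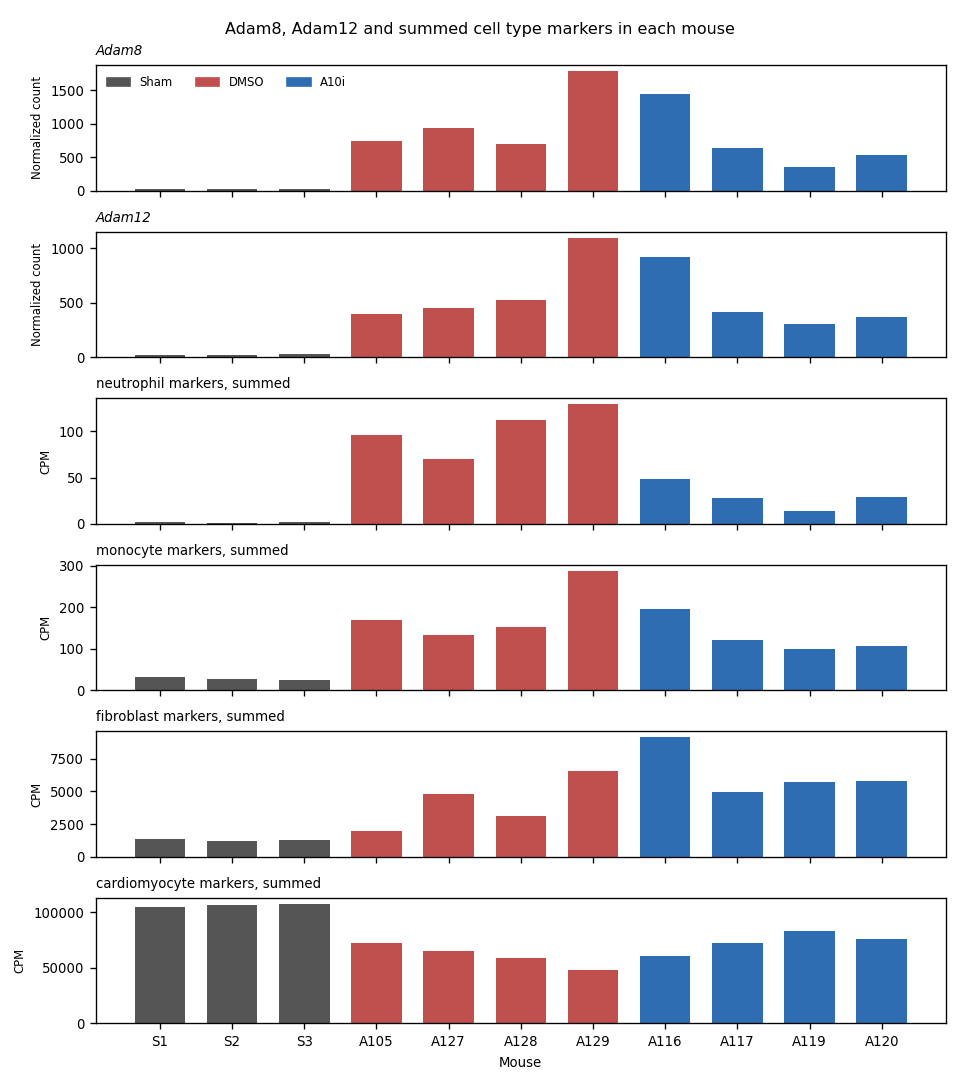
Normalized counts of Adam8 and Adam12 and summed CPM of 4 marker lists (vertical axes, linear from 0) in each of the 11 mice (horizontal axis), coloured by group. A129 and A116 have the tallest bars of their groups for Adam8, Adam12 and the neutrophil, monocyte and fibroblast markers, and the shortest for the cardiomyocyte markers.

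Adam19 (meltrin beta), a protease needed for heart valve and septum development that processes neuregulin, rose in all infarcted hearts. Its normalized count was 570 in S1, 592 in S2 and 641 in S3, 2276 in A105, 1629 in A127, 1799 in A128 and 1928 in A129, and 1540 in A116, 1308 in A117, 1348 in A119 and 963 in A120. The 3 groups did not overlap, with A10i mice between sham and DMSO mice. Adam19 was 3.16-fold higher in DMSO mice (95% interval 2.63 to 3.80, adjusted p = 4.17e-05) and 2.15-fold higher in A10i mice (1.72 to 2.69, adjusted p = 0.000652) than in sham. With A10i the log2 fold change against DMSO was -0.56 ± 0.15 (SE), a fold of 0.677 (0.541 to 0.848). Its adjusted p of 0.147 in edgeR missed the threshold. The adjusted p was 0.0251 in DESeq2 without weights, the lowest of the alternatives. The paper, which used DESeq2 with weights at the same threshold of 0.01, reports Adam19 as significantly lower with A10i. Unlike Adam8, Adam19 was highest in A105, the DMSO mouse with the lowest fibroblast sum, so the order of the DMSO mice differed between the 2 genes. Gm16033 and Gm16034, which share exon sequence with Adam19 on the opposite strand, had at most 3 counts in a library.

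Adam9, a widely expressed sheddase, had 1915, 1762 and 1851 normalized counts in S1, S2 and S3, and 3228 in A105, 3009 in A127, 3203 in A128 and 4299 in A129. A10i mice had 3688 in A116, 3174 in A117, 2629 in A119 and 2899 in A120. All infarcted hearts lay above all sham hearts, with A129 and A116 again highest. The rise was 1.86-fold in DMSO (95% interval 1.53 to 2.26, adjusted p = 0.00075) and 1.69-fold in A10i mice (1.43 to 1.99, adjusted p = 0.000731). It remained called when any single mouse was left out.

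Adam15, a protease of vascular and other cells with an RGD-type integrin site in the human protein, had 1946 ± 114 normalized counts in sham (SD, n = 3), 2847 ± 226 in DMSO and 2766 ± 156 in A10i mice (SD, n = 4 each), and infarcted and sham hearts did not overlap. It rose 1.46-fold in DMSO (95% interval 1.27 to 1.67, adjusted p = 0.00143) and 1.42-fold in A10i mice (1.28 to 1.59, adjusted p = 0.000654). The call in DMSO mice was lost without S1 (adjusted p = 0.0108) or S2 (0.0135). Adam15 overlaps exons of 4731419I09Rik on the opposite strand, which had at most 12 counts.

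Adam17, the convertase that releases TNF and several ligands of the EGF receptor, was not called in any comparison. Its normalized count was 1251, 1234 and 1206 in S1, S2 and S3, 1115 in A105, 1253 in A127, 1072 in A128 and 1375 in A129, and 1588 in A116, 1193 in A117, 1238 in A119 and 1369 in A120. The 3 groups overlapped. The fold was 0.976 in DMSO against sham (95% interval 0.842 to 1.13, adjusted p = 0.789), 1.10 in A10i against sham (0.948 to 1.27, adjusted p = 0.29) and 1.12 in A10i against DMSO (0.946 to 1.33, adjusted p = 0.552). These intervals reach down to 0.842 and up to 1.33, which leaves room for a moderate change in either direction. Adam17 shares exon sequence with Iah1 on the opposite strand, which had 218 to 399 counts beside 1034 to 1566 of Adam17.

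The iRhoms carry ADAM17 to the Golgi. Rhbdf2 (iRhom2, the form that prevails in myeloid cells) had 410, 461 and 434 normalized counts in S1, S2 and S3, 619 in A105, 532 in A127, 603 in A128 and 563 in A129, and 482 in A116, 387 in A117, 445 in A119 and 445 in A120. DMSO mice lay above both other groups without overlap, and A10i and sham mice overlapped. Rhbdf2 was 1.33-fold higher in DMSO than in sham mice (95% interval 1.15 to 1.53, adjusted p = 0.00654) and 1.01-fold in A10i against sham mice (0.878 to 1.17, adjusted p = 0.895). With A10i it was 0.760 of the DMSO level (95% interval 0.659 to 0.877), at an adjusted p of 0.117 in edgeR. The adjusted p was 0.016 in DESeq2 and 0.042 in an edgeR fit of all 11 libraries, neither under 0.01.

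Rhbdf1 (iRhom1) had 805 ± 34.8 normalized counts in sham (SD, n = 3), 1042 ± 90.3 in DMSO and 996 ± 47.2 in A10i mice (SD, n = 4 each). It was 1.29-fold higher in DMSO (95% interval 1.13 to 1.48, adjusted p = 0.00925) and 1.24-fold higher in A10i than in sham mice (1.12 to 1.38, adjusted p = 0.00528). Between A10i and DMSO its fold was 0.957 (0.845 to 1.08, adjusted p = 0.782). The length-scaled ratio of Rhbdf2 to Rhbdf1 was 0.528 to 0.607 in sham, 0.50 to 0.682 in DMSO and 0.427 to 0.483 in A10i mice, so it was lowest in the 4 A10i mice. This ratio was formed with the counts in view and has no test.

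The calls of both iRhoms against sham were close to the threshold. Rhbdf1 in DMSO mice kept its call in 1 and Rhbdf2 in 2 of the 7 fits that each left out 1 mouse, at adjusted p-values of up to 0.0493 and 0.0411, and limma-voom gave 0.0113 for Rhbdf1. In A10i mice Rhbdf1 kept its call in 3 of 7 such fits. Without S1 or without S2 only 4 of the 10 genes were called in DMSO against sham, and 5 without S3 or without A128. Adam8, Adam12, Adam19 and Adam9 were called in each of these fits.

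ADAM22 and ADAM23 bind the secreted LGI proteins on neurons and Schwann cells. Adam22 was the gene that fell, from 623, 634 and 792 normalized counts in S1, S2 and S3 to 545 in A105, 332 in A127, 440 in A128 and 347 in A129, and to 415 in A116, 452 in A117, 424 in A119 and 548 in A120. No infarcted heart reached the lowest sham heart. The fold was 0.607 in DMSO (95% interval 0.464 to 0.794, adjusted p = 0.00972) and 0.674 in A10i mice (0.561 to 0.81, adjusted p = 0.00433). The call held in 1 of 7 fits that left out 1 mouse in DMSO and in 2 of 7 in A10i mice, with log2 fold changes of -0.89 to -0.60 and -0.66 to -0.45. With library size alone, which moves the median log2 fold change of all genes to 0.21 in DMSO and 0.18 in A10i mice, the log2 fold change of Adam22 was -0.53 and -0.38 and neither was called. Relative to that shift the difference is about as large as with TMM.

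Adam23 was the least abundant gene per length in infarcted hearts and was not called, with 79.7 to 91.8 normalized counts in sham, 39.9 to 89.3 in DMSO and 83.1 to 104.9 in A10i mice. The groups overlapped, and the lowest value belonged to A105. Its log2 fold change was -0.30 ± 0.25 (SE, adjusted p = 0.372) in DMSO against sham, 0.11 ± 0.15 (SE, adjusted p = 0.58) in A10i against sham and 0.41 ± 0.23 (SE, adjusted p = 0.476) in A10i against DMSO.

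Some cardiomyocyte markers fell as Adam22 did, 5 of 10 in DMSO and 3 of 10 in A10i mice, and none was at 0. The other 5 and 7 were not called, and 9.6% and 9.11% of all genes were called lower. Among 10 endothelial markers, 3 were lower and 1 higher in DMSO mice, and 1 lower and 1 higher in A10i mice. Of 11 Schwann cell and neuron markers 7 were tested, with 1 higher and 1 lower in DMSO and 2 higher in A10i mice. The shares of all genes were 12.9% higher and 9.6% lower in DMSO mice and 13.7% higher in A10i mice. With 7 genes, the counts cannot be set apart from these shares. The summed level of the 11 markers was 21.0 to 25.3 CPM in sham, 24.0 to 39.7 in DMSO and 29.3 to 33.4 in A10i mice. Of the 2 most abundant markers of this list, Cdh19 averaged 213 normalized counts in sham, 126.8 in DMSO and 158 in A10i hearts. Tubb3, a neuronal tubulin, averaged 18.7, 306 and 245. Mb, myoglobin, averaged 243700 normalized counts in sham, 147200 in DMSO and 174500 in A10i hearts. The part of these cells in the level of Adam22 was not tested. Endothelial marker sums were 1261 to 1305 CPM in sham, 1068 to 1188 in DMSO and 1193 to 1300 in A10i mice, smooth muscle sums 369 to 383, 340 to 423 and 432 to 531 CPM, and T and B cell sums at most 4.29 CPM in any library.

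**Figure D4:**
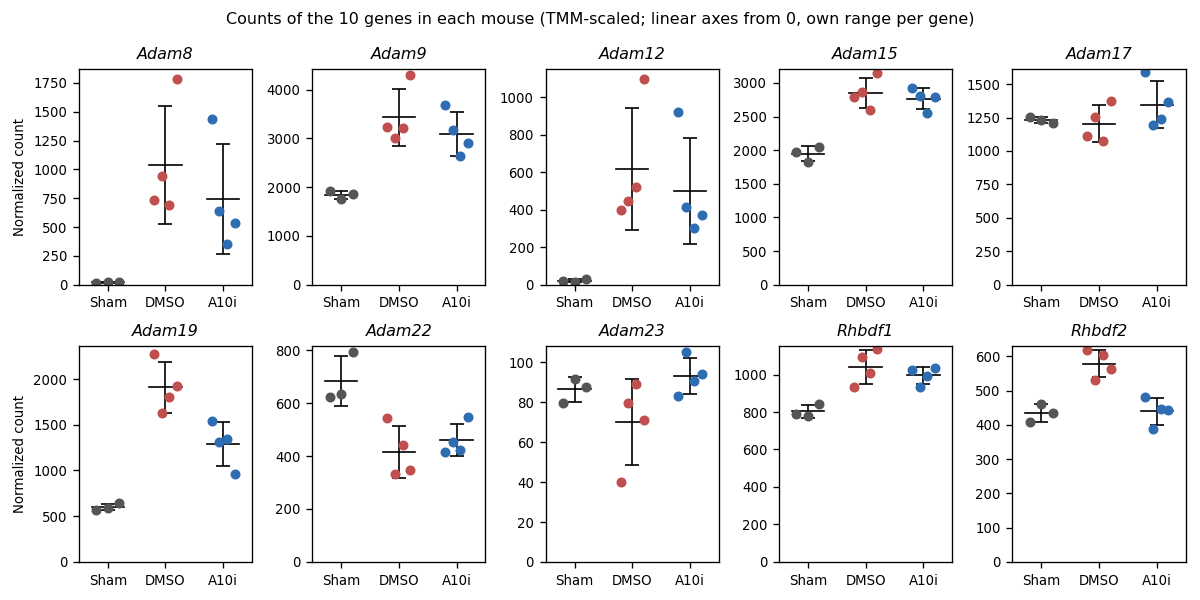
TMM-normalized counts (vertical axes, linear from 0, own range per gene) of the 10 genes in each mouse by group; points are mice, and black bars give the mean and SD of 3 sham, 4 DMSO and 4 A10i mice. Adam8 and Adam12 are near 0 in sham mice, Adam22 is highest in sham mice, and for Adam19 and Rhbdf2 the 4 A10i points lie below the 4 DMSO points.

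Levels of different genes were compared as CPM per kilobase of exons. In sham hearts the order was Adam9 at 17.5 ± 0.728 (SD, n = 3), Adam15 at 12.4, Adam17 at 6.73, Rhbdf1 at 5.80, Adam19 at 3.31, Rhbdf2 at 3.22, Adam22 at 1.86, Adam23 at 0.189, Adam8 at 0.176 and Adam12 at 0.0817. Neighbours in this order did not overlap over the 3 mice except Adam19 with Rhbdf2 and Adam23 with Adam8.

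In DMSO mice the order of these levels was Adam9 at 32.7 ± 5.56 (SD, n = 4), Adam15 at 18.1, Adam19 at 10.5, Adam8 at 8.75, Rhbdf1 at 7.50, Adam17 at 6.58, Rhbdf2 at 4.28, Adam12 at 2.28, Adam22 at 1.14 and Adam23 at 0.153. Adam19 thus stood ahead of Adam17 without overlap, whereas Adam8 ranged from 5.83 to 15.0 and overlapped Adam19, Rhbdf1 and Adam17. Without A129, an alternative chosen after seeing the data, Adam8 averaged 6.66 (n = 3), below Rhbdf1 at 7.28 and beside Adam17 at 6.27. Rhbdf1 overlapped Adam17, and Adam12 overlapped Rhbdf2 and Adam22. The other neighbours did not overlap.

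In A10i mice the order was Adam9 at 29.4 ± 4.30 (SD, n = 4), Adam15 at 17.6, Adam17 at 7.37, Rhbdf1 at 7.17, Adam19 at 7.09, Adam8 at 6.26, Rhbdf2 at 3.25, Adam12 at 1.86, Adam22 at 1.25 and Adam23 at 0.204. Among neighbours, only Adam9 and Adam15, Adam15 and Adam17, and Adam22 and Adam23 did not overlap over the 4 mice. Adam9 and Adam15 led in all 3 groups.

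The summed length-scaled level of the 10 genes was 49.5 to 52.7 in sham, 83.6 to 112 in DMSO and 71.3 to 98.6 in A10i mice. Adam9 held a mean of 34.2% of this sum in sham mice, 35.4% with DMSO and 36.1% with A10i. Adam8 held 0.342%, 9.21% and 7.30%, in the same order, whereas Adam17 held 13.1%, 7.19% and 9.07%.

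**Figure D5:**
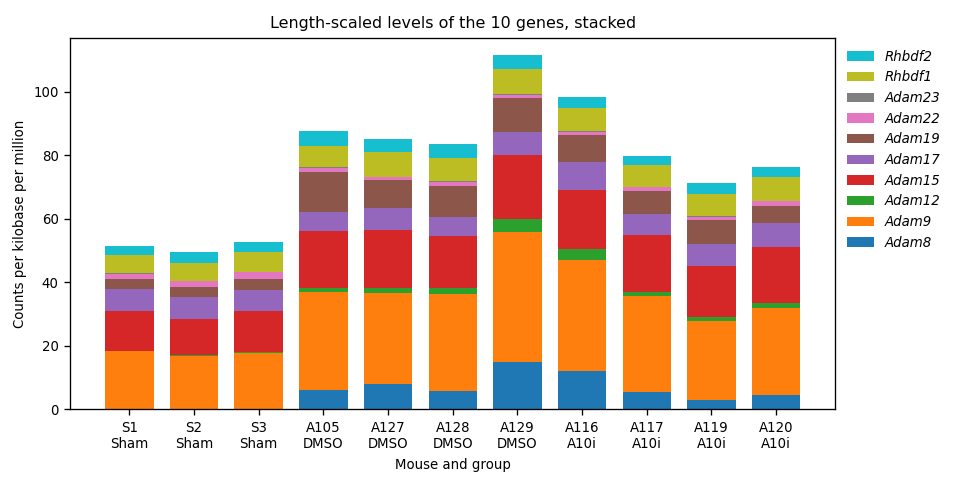
Length-scaled levels of the 10 genes (vertical axis, CPM per kilobase of exons, linear from 0), stacked for each mouse (horizontal axis, with its group). The stacks of sham mice end near 50 and those of infarcted mice between 71.3 and 112, and the segments of Adam9 and Adam15 are the thickest in every mouse.

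Other members of the ADAM family were not among the 10 genes. Of 25 other genes with an Adam symbol, 10 were at 0 in every library, 11 never exceeded 20 counts, and 4 did: Adam10, Adam11, Adam1a and Adam33. Of these 4, Adam33 fell by 0.90 on the log2 scale in DMSO against sham mice (adjusted p = 0.00761, edgeR) and no other was called in any comparison. Per length, Adam10 stood at 11.6 CPM per kilobase in sham, 14.3 in DMSO and 15.2 in A10i hearts, above Adam17 in each group, and Adam11 at 2.09, 2.25 and 2.24. Adam10, the target of the inhibitor, had 1461 ± 60.4 normalized counts in sham (SD, n = 3), 1798 ± 419 in DMSO and 1906 ± 281 in A10i mice (SD, n = 4 each), with adjusted p-values of 0.164 against sham in DMSO, 0.0142 in A10i and 0.853 between the infarcted groups.

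Genes of the pathway around the proteases were described as 6 lists, without a test of the lists. Their counts stand beside 12.9% of all genes called higher and 9.6% lower in DMSO against sham, and 13.7% and 9.11% in A10i against sham. Among 15 membrane growth factors and cytokines that sheddases release, 12 were tested in DMSO against sham, 5 rose and 1 fell, with a median log2 fold change of 0.80. Tnf, the founding substrate of ADAM17, had 1.91 to 5.15 normalized counts in sham, 23.8 to 33.4 in DMSO and 8.90 to 24.3 in A10i mice, and its log2 fold change between A10i and DMSO was -0.83 ± 0.31 (SE, adjusted p = 0.274 in edgeR). Ereg (epiregulin, a ligand of the EGF receptor) had 0 to 4.43 in sham, 55.7 to 150 in DMSO and 30.6 to 76.0 in A10i mice, and Tnfsf11 (RANKL) had 0 to 1.11, 5.39 to 22.1 and 3.96 to 23.3. In A10i against sham 5 rose and 1 fell of 11 tested, with a median of 0.79. In A10i against DMSO mice the median was 0.00 and 0 of 12 were called, the smallest p belonging to Ereg with a log2 fold change of -1.28 ± 0.36 (SE, adjusted p = 0.173 in edgeR).

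Of 26 membrane receptors and adhesion molecules, 25 were tested, and 13 rose and 1 fell in DMSO mice (median 0.72) while 14 rose and 1 fell in A10i mice (median 0.74). Cd44, a hyaluronan receptor, rose by 2.59 on the log2 scale in DMSO mice. Il1r2, a decoy receptor of interleukin-1, had 0 to 1.91 normalized counts in sham, 132 to 535 in DMSO and 13.7 to 74.0 in A10i mice. Its 2 infarcted groups did not overlap, and its log2 fold change between them was -2.68 ± 0.53 (SE, adjusted p = 0.0931 in edgeR and 0.00227 in DESeq2). It was not called by edgeR, as were 0 of the 25, and the median between A10i and DMSO was -0.12. Of the genes in this list, 6 also stand in a marker list.

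Of 7 convertases that remove prodomains 5 were tested, and 2 fell in each comparison with sham, where 9.6% of all genes were called lower in DMSO and 9.11% in A10i mice. With 5 genes, no more than the count can be said. Pcsk6 (PACE4) fell by 0.98 and Pcsk4 by 1.01 on the log2 scale in DMSO mice. The median was -0.12 in DMSO and -0.10 in A10i mice against sham and 0.02 between them, where Pcsk6 had a log2 fold change of 0.46 ± 0.15 (SE, adjusted p = 0.229 in edgeR).

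Of 15 partners and inhibitors of ADAM17 and the iRhoms, all tested, 2 rose and 1 fell in DMSO mice and 5 rose and 1 fell in A10i mice, with medians of 0.18 and 0.20. In DMSO mice this is close to the 12.9% higher and 9.6% lower of all genes, so it says nothing about the list. Those of DMSO mice were Pdia6, a disulfide isomerase (0.79), Cd9, a tetraspanin (0.46), and Dlg1, a scaffold protein (-0.45). With the inhibitor against DMSO the median was 0.03, 0 of 15 had an unadjusted p under 0.05, and the smallest p was that of Map2k1 (adjusted p = 0.531 in edgeR).

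Of 7 ligands and partners of ADAM22 and ADAM23, 2 rose and 1 fell in each comparison with sham, with medians of -0.43 and -0.22. Of all genes, 12.9% were called higher and 9.6% lower in DMSO, and 13.7% and 9.11% in A10i mice, and the list is too short to set apart from these shares. Lgi1, a ligand of both receptors, fell by 1.85 on the log2 scale in DMSO and by 0.93 in A10i mice, whereas Lgi2 rose by 1.08 and 1.36 and Dlg4 (PSD-95) by 0.86 and 1.11. Lgi1 had 73.1 to 78.3 normalized counts in sham, 8.63 to 30.6 in DMSO and 26.4 to 49.4 in A10i mice. Between A10i and DMSO the median was 0.27 and 0 of 7 were called, with Lgi1 at 0.92 ± 0.38 (SE, adjusted p = 0.313 in edgeR).

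Of 10 integrin subunits that bind disintegrin domains, 5 rose in DMSO mice (median 0.67) and 4 in A10i mice (median 0.55), and none fell. The largest rises in DMSO mice were those of Itgb3 (2.41), Itga5 (1.61) and Itga3 (0.85). In A10i against DMSO mice 0 of 10 were called, the median was -0.12, and Itga3 had the smallest p at -0.47 ± 0.13 (SE, adjusted p = 0.176 in edgeR).

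For the 3 members that rose by more than 1 on the log2 scale, the genes with the most similar course over the 11 libraries were looked up among 17479 genes, by the root mean square difference of log2 CPM after each gene's sham mean was subtracted. Nearest to Adam19 were Fosl2, an AP-1 subunit, at 0.116 and Upp1, uridine phosphorylase, at 0.139. For Adam12 they were Sirpb1b at 0.28 and Clec4d at 0.303, and for Adam8 Sirpb1c at 0.367 and Clec4d at 0.481. In DMSO against sham, the log2 fold change was 9.92 for Sirpb1c beside 5.62 for Adam8, and 8.97 for Sirpb1b beside 4.80 for Adam12. Clec4d rose by 5.36. The prior count of 2 in log2 CPM narrows such gaps at low counts, so a small distance is not an equal rise. The distances are not scaled to the size of a gene's change, so those of Adam19, which changed less, cannot be set against those of Adam8 and Adam12. Clec4d, a C-type lectin receptor of myeloid cells, was named for both Adam8 and Adam12. Counts of Sirpb1b and Sirpb1c, close copies of each other, are uncertain.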

How the data were processed

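Poly(A) RNA of 11 mouse hearts was sequenced as strand-specific libraries. The authors aligned read pairs to mm10 with GSNAP and deposited raw counts of uniquely aligned reads per Ensembl gene from featureCounts 2.0.1 (bcl2fastq 2.20.0 for base calls), with no normalization. The strand setting of the counting is not given in the sources used here. Of 55513 rows, 92 spike-in rows with 397 counts in all were left out. Symbols came from the annotation for 55154 of 55421 genes, and 0 per-sample columns were left unused. Positions of the 10 genes were the same in the GENCODE M21 annotation of GRCm38, and promoter windows came from RefSeq (GRCm38.p6), which matched 6 members.

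Only the 2 groups compared entered each fit: edgeR 4.0.16 (R 4.3.3), filterByExpr, TMM, robust quasi-likelihood F-test, two-sided, Benjamini-Hochberg adjustment over all genes tested, threshold 0.01. The paper used DESeq2 with weights, and DESeq2 1.42.0 without weights and limma-voom (limma 3.58.1) were alternatives, beside other normalizations, filters, a threshold of 0.05, a joint fit of the 11 libraries and leaving out each mouse. The edgeR fit was tested on simulated data. Normalized counts were scaled by TMM to the mean effective library size of the 11 mice. Log2 CPM used a prior count of 2. Labels give each library as 1 mouse, and replicates differed beyond counting error (chi-square per degree of freedom 4.04 to 60.8 over 15 pairs).

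The members, lists and the rule for named genes were chosen with earlier results of these data known. The rule names all 10 members and, per pathway list, the 3 called genes with the largest change in DMSO against sham. It adds the gene of each pathway list with the smallest p in A10i against DMSO. It also names the 2 most abundant markers per list (given for some of the lists). The last are the 2 genes nearest to each member that changed by more than 1 on the log2 scale. A gene that the rule names is not reported here. Other named genes were chosen after their values were seen.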

Additional observations from a re-analysis of the deposited data

Results flagged for a closer look

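Of 20 groups of 4 mice examined for a mouse far from the others, 1 stood out. Adam9 had 4299 normalized counts in DMSO mouse A129, whereas the other 3 DMSO mice had 3009 to 3228, a gap just above the critical value of Dixon's test for 4 values. Chance gives about 1 such group in 20. Without A129 the log2 fold change of Adam9 in DMSO against sham was 0.77 in place of 0.90 and remained called. A129 also had the highest monocyte, macrophage and fibroblast marker sums of the DMSO mice, whose part in this value was not tested.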

How the results depend on the processing

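The rises of Adam8, Adam12, Adam19 and Adam9 against sham kept their direction and their call under every alternative run, as did that of Adam15 except in DMSO mice without S1 or S2. The number of the 10 genes called in DMSO against sham was 7 or 8 under other tests, normalizations and filters, and 4 to 7 when single mice were left out, in which case fewer mice are tested. In A10i against sham it was 5 to 7. In A10i against DMSO it was 0 throughout, and 0 at a threshold of 0.05 in the main edgeR fit too. In DESeq2, Adam19 (adjusted p = 0.0251) and Rhbdf2 (0.016) were under 0.05. Values that changed sign were all far from the threshold. Adam17 in DMSO against sham was 0.18 with library size alone and -0.104 to 0.0192 when single mice were left out. Leaving out single mice gave -0.0274 to 0.0778 for Rhbdf2 in A10i against sham, and -0.76 to 0.14 for Adam12 and -0.0772 to 0.011 for Adam15 in A10i against DMSO. Calls against sham near the threshold were lost under other settings for Adam22 with library size alone (adjusted p = 0.0194 in DMSO and 0.0301 in A10i mice, edgeR), for Rhbdf1 with limma-voom in DMSO mice (0.0113), and for Adam22 (0.0203) and Rhbdf1 (0.0124) in A10i mice in the edgeR fit of all 11 libraries. The cause was not tested. No paired analysis was possible because the labels give no replicate number that the groups share. The folds of Adam8 and Adam12 against sham have wide intervals. Sham mice had 15 to 29 counts of these genes, and infarcted mice differed widely. The spread among infarcted mice limits the comparison of A10i with DMSO.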
